A study of Arabidopsis thaliana with 27 samples.

Results

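Transcript levels of catalase 2 and of glycolate oxidase, the enzymes altered in the lines of this study, were followed with 2 of the 22810 probe sets of an Arabidopsis ATH1-type array. They were chosen because they stand for the altered genes, not for their values. The CAT2 probe set, 253174_at, is assigned to AT4G35090 on chromosome 4. The GOX1/GOX2 probe set, 258359_s_at, is assigned to GOX1 (AT3G14420) and GOX2 (AT3G14415), neighbouring genes on chromosome 3, and reads both together. These assignments came with the choice of the probe sets, since neither is listed in the array annotation used here, and the 3 loci carry the same symbols in RefSeq.

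RNA came from whole rosettes of 3-week-old plants grown on soil at 3000 ppm CO2. Each of 9 groups held 3 arrays, and each array 2 pooled rosettes, so that 27 arrays were compared. GO5 plants express glycolate oxidase in their chloroplasts. The cat2-2 plants are a Salk insertion line said in the labels to keep 10 to 15% of wild-type catalase activity, and the wild type (WT) was Col-0. The lines were harvested 8 h after a move to 380 ppm CO2 (ambient), after 8 h more at 3000 ppm (high CO2), or at 0 h. The light was 75 µmol quanta per square metre and second for 16 h a day in every group, at 22 °C by day and 18 °C by night. High CO2 was thus shared by all groups until the move, the controls included. The promoter of the GO5 transgene and the place of the probes relative to the cat2-2 insertion are not given in the sources used here. GO5 and cat2-2 are 1 line each. In rosettes, fewer cells of a type and less RNA per cell cannot be told apart.

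Photorespiration begins when Rubisco fixes oxygen in place of CO2, which is more frequent at low CO2. The glycolate so formed passes from the chloroplast to the peroxisome, where glycolate oxidase turns it into glyoxylate and releases H2O2. Catalase, of which CAT2 is the main leaf form, breaks this H2O2 down in the same organelle. GO5 chloroplasts make H2O2 from glycolate on the spot, whereas cat2-2 peroxisomes remove less of it.

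Array medians lay between 5.28 and 5.52 log2, and correlations between arrays of a group between 0.962 and 0.995. Green leaf markers were bright, with mean log2 signals of 13.00 for Rubisco activase (RCA), 12.54 for the light-harvesting protein LHCB4.1 and 11.71 for phosphoribulokinase (PRK). Of 8 root markers 2 were measured: EXPA7 of root hairs lay near background at 2.73, and the root beta-glucosidase PYK10 was at 10.83. Their part in the results was not tested, and 0 of 5 flower and 0 of 3 seed markers were measured. As a measure of RNA quality, the mean excess of the 3' over the 5' GAPDH control was 1.49 to 1.83 log2 in the GO5 and cat2-2 groups and 1.53 in WT at 0 h. It was 2.12 ± 0.61 (SD, n = 3) in WT at ambient CO2 and 2.09 ± 0.31 in WT at high CO2. The same excess for the actin control was not highest in WT at ambient CO2. There it was 3.995 ± 0.55 in WT, against 4.19 ± 0.25 in GO5 and 4.04 ± 0.42 in cat2-2. At high CO2 the actin excess was 4.23 ± 0.11 in WT, 4.11 ± 0.14 in GO5 and 3.95 ± 0.14 in cat2-2. Precision is limited by the number of arrays. A call means an adjusted p under 0.05 in limma (Benjamini-Hochberg over 22746 probe sets), and errors of differences are standard errors of that fit. The fit shares its variance estimate over all 9 groups, so its errors and intervals do not follow the spread of the groups compared. For CAT2 the group SD ran from 0.096 in GO5 at 0 h to 0.93 in WT at ambient CO2.

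**Figure D1:**
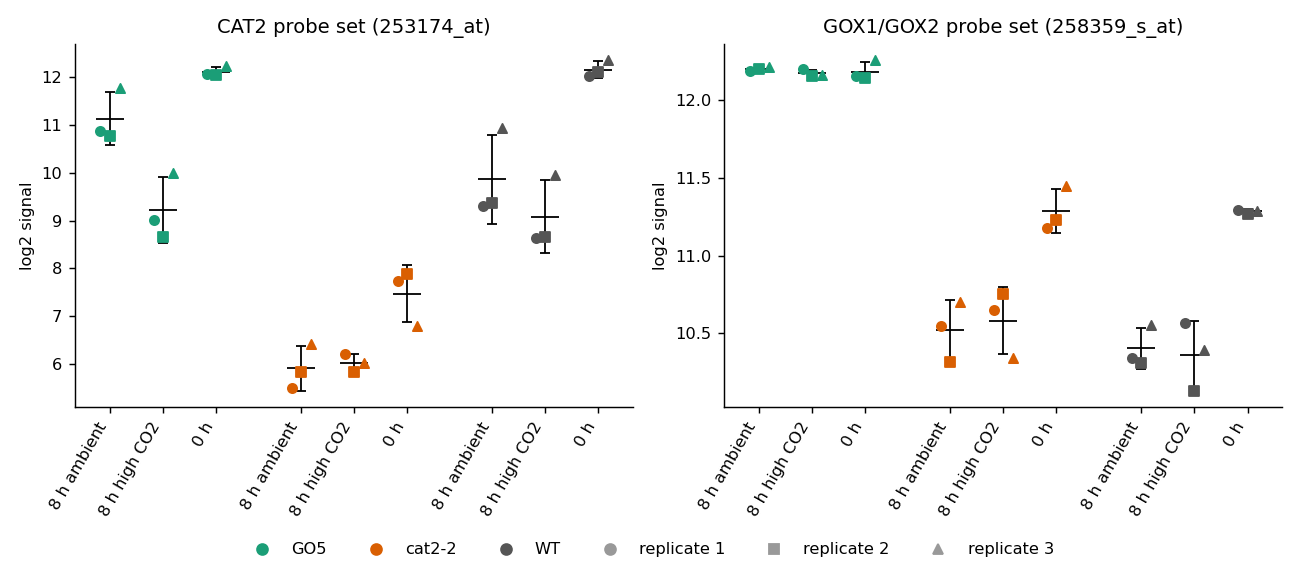
Log2 signal of the CAT2 probe set (left) and of the GOX1/GOX2 probe set (right) on each of 27 arrays, by line (colour), condition (horizontal axis) and replicate number (marker). Horizontal lines are means and bars are SD of 3 arrays. The cat2-2 arrays are lowest for CAT2, and the 9 GO5 arrays lie together at 12.14 to 12.25 for GOX1/GOX2.

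The glycolate oxidase signal was higher in GO5 than in both other lines in all 3 conditions, and no difference between conditions was called within GO5. At ambient CO2 the GOX1/GOX2 probe set read 12.19, 12.20 and 12.21 in GO5, against 10.34, 10.31 and 10.55 in WT. At high CO2 it read 12.20, 12.15 and 12.16 in GO5, against 10.57, 10.13 and 10.39 in WT. At 0 h it read 12.15, 12.14 and 12.25 in GO5, against 11.29, 11.27 and 11.29 in WT. Every GO5 array was above every WT array, and the gap was narrower at 0 h, where WT was brightest.

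The fitted difference of GO5 from WT was 1.80 ± 0.12 log2 at ambient CO2, or 3.48-fold (95% interval 1.55 to 2.04, limma adjusted p = 3.04e-09). At high CO2 it was 1.81 ± 0.12 (3.50-fold, adjusted p = 6.75e-09), and at 0 h 0.90 ± 0.12 (1.86-fold, adjusted p = 0.00194). The share of all probe sets called was 18.4% at ambient CO2, but 0.0132% (3 probe sets) at high CO2 and 0.00879% (2 probe sets) at 0 h. By p-value the GOX1/GOX2 probe set ranked 4 at ambient CO2 and 2 in each of the other conditions. Averaged over the conditions the difference was 1.50 ± 0.07 (adjusted p = 4.55e-12), where 2.56% of probe sets were called. The call at 0 h was lost with only the 6 arrays compared (adjusted p = 0.124), and those at 8 h were kept.

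The few other probe sets called between GO5 and WT under high CO2 were looked up after their values were seen. AT3G55920, named only by its locus here, was called at 0 h (3.76 ± 0.09) and after 8 h at high CO2 (4.14 ± 0.09). It was also called in cat2-2 against WT, at 3.70 ± 0.09 at 0 h and 4.19 ± 0.09 at high CO2, comparisons that share the WT arrays. Its group means lay between 6.64 and 7.22 in GO5 and cat2-2, against 2.99 to 3.16 in WT. AT2G04050, a MATE-type carrier, was called at high CO2 (3.94 ± 0.58) with a mean log2 signal of 6.80 in GO5 and 2.86 in WT.

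The GOX1/GOX2 signal of GO5 was also above that of cat2-2. The GOX1/GOX2 difference was 1.68 ± 0.12 at ambient CO2 (adjusted p = 1.87e-08), 1.59 ± 0.12 at high CO2 (adjusted p = 1.63e-07) and 0.90 ± 0.12 at 0 h (adjusted p = 0.00195), with no overlap of arrays. The call at 0 h was lost with only the 6 arrays compared (adjusted p = 0.672). The share of probe sets called was 8.2% at ambient CO2, 0.0176% at high CO2 and 0.00879% at 0 h. The 4 probe sets called at high CO2 were both members, AT2G04050 and EXO (AT4G08950), an extracellular protein of the EXORDIUM family, which was 1.52 ± 0.25 higher in GO5.

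On the unlogged scale, the GOX1/GOX2 mean signal in GO5 was 347% of WT at ambient CO2, 347% at high CO2 and 186% at 0 h. The excess of GO5 over WT was 3350 signal units at ambient CO2, 3280 at high CO2 and 2155 at 0 h. The probe set cannot tell transcripts of the native genes from those of a transgene, so it does not show how these signals divide between them.

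The GOX1/GOX2 signal in GO5 was among the steadiest of the array. Its SD over the 9 GO5 arrays was 0.037 log2, and 5 of 22746 probe sets (0.0220%) had a smaller one. Of 43 probe sets within 0.25 log2 of its mean in GO5 none was steadier, with SDs from 0.076 to 0.785 and a median of 0.176. The highest value of any probe set on any array was 13.59. Whether the GOX1/GOX2 probes read near their own ceiling in GO5 was not tested. In the other lines the GOX1/GOX2 SD over 9 arrays was 0.400 in cat2-2 and 0.468 in WT.

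In cat2-2 the GOX1/GOX2 probe set was not called different from WT in any condition. It read 10.55, 10.32 and 10.70 in cat2-2 at ambient CO2, 10.65, 10.75 and 10.34 at high CO2, and 11.18, 11.23 and 11.45 at 0 h. These values overlapped those of WT in each condition. The difference was 0.12 ± 0.12 at ambient CO2 (95% interval -0.13 to 0.37, adjusted p = 0.700). It was 0.22 ± 0.12 at high CO2 (-0.028 to 0.46) and 0.00033 ± 0.12 at 0 h (-0.25 to 0.25), so that changes of over 0.46 log2 lay outside all 3 intervals. Averaged over the conditions it was 0.11 ± 0.07 (adjusted p = 0.998).

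The catalase 2 signal was lower in cat2-2 than in WT on every array and in every condition. At ambient CO2 the CAT2 probe set read 5.50, 5.83 and 6.43 in cat2-2, against 9.30, 9.36 and 10.93 in WT. At high CO2 it read 6.21, 5.83 and 6.01 in cat2-2, against 8.64, 8.65 and 9.96 in WT. At 0 h it read 7.74, 7.89 and 6.79 in cat2-2, against 12.01, 12.10 and 12.35 in WT. The brightest cat2-2 array, at 7.89, lay below the dimmest WT array, at 8.64, though these came from different conditions.

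The difference of cat2-2 from WT was -3.94 ± 0.43 at ambient CO2 (15.4-fold lower, limma adjusted p = 1.31e-05), where 0.703% of probe sets were called. It was -3.06 ± 0.43 at high CO2 (8.37-fold lower, adjusted p = 0.0047) and -4.68 ± 0.43 at 0 h (25.6-fold lower, adjusted p = 3.69e-06). In each of these conditions the share called was 0.00879%, which is CAT2 and AT3G55920 alone. By limma an unadjusted p under 0.05 was reached by 918 probe sets at high CO2 and 224 at 0 h. Each count is below that expected at this threshold if no probe set differed. Such counts do not show that no other probe set differed, because the shared variance takes in noisier groups. The median SD was 0.139 in WT and 0.144 in cat2-2 at 0 h, against 0.237 in WT at ambient CO2. Whether the p-values are too large here was not tested. At 0 h no other probe set differed by as much between the lines. With only the 6 arrays compared, the calls at ambient (adjusted p = 0.114) and high CO2 (adjusted p = 0.368) were lost, and that at 0 h was kept. Averaged over the conditions the CAT2 difference was -3.90 ± 0.25 (adjusted p = 3.48e-09), and 0.0703% of probe sets were called, CAT2 the 1 lower among 16.

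On the unlogged scale the mean CAT2 signal of cat2-2 was 5.81% of WT at ambient CO2, 10.9% at high CO2 and 4.09% at 0 h. These are probe signals, not enzyme activities. At 0 h replicate 3 of cat2-2 differed from the mean of the other two by -1.02 log2, and 1.76% of probe sets shifted further down on that array.

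**Figure D2:**
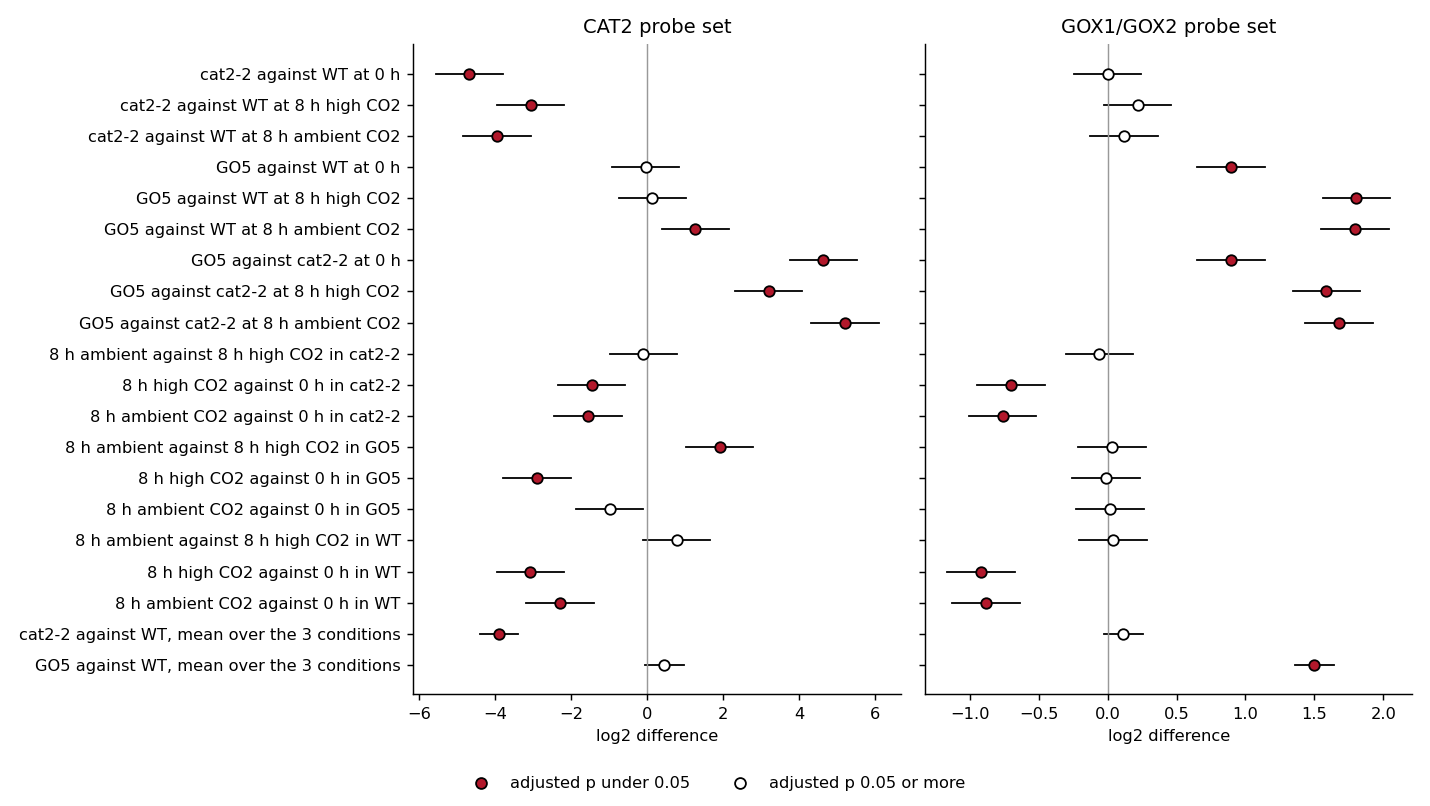
Log2 differences of the CAT2 probe set (left) and of the GOX1/GOX2 probe set (right) in 20 comparisons of 3 arrays a group or of means over conditions, with 95% intervals. Filled points have an adjusted p under 0.05. For CAT2 the comparisons of cat2-2 with GO5 or WT lie far from 0, and for GOX1/GOX2 those of GO5 with cat2-2 or WT do. Some differences between 8 h and 0 h within a line are as large as the smallest of these. In WT at high CO2 they were -3.07 for CAT2 and -0.92 for GOX1/GOX2. For GOX1/GOX2 the comparisons within GO5 have intervals that span 0.

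Between GO5 and WT the CAT2 signal was close at 0 h and at high CO2, and higher in GO5 after 8 h at ambient CO2. At ambient CO2 it read 10.86, 10.77 and 11.76 in GO5, against 9.30, 9.36 and 10.93 in WT. At high CO2 it read 9.01, 8.66 and 9.99 in GO5, against 8.64, 8.65 and 9.96 in WT. At 0 h it read 12.07, 12.04 and 12.22 in GO5, against 12.01, 12.10 and 12.35 in WT. The arrays of the lines overlapped in all 3 conditions, at ambient CO2 because replicate 3 of WT (10.93) lay above replicates 1 and 2 of GO5.

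The CAT2 difference of GO5 from WT was 1.27 ± 0.43 at ambient CO2 (2.41-fold, 95% interval 0.38 to 2.16, adjusted p = 0.0426), close to the threshold. The call was lost with the GAPDH difference as a covariate (0.86, adjusted p = 0.269), with only the 6 arrays compared (1.27, adjusted p = 0.235), and without replicate 1 (0.99) or 2 (1.02) of WT or replicate 2 (1.45) or 3 (0.95) of GO5. Over 17 alternatives the adjusted p ran from 0.000268 to 0.297. At high CO2 the difference was 0.14 ± 0.43 (-0.75 to 1.02), and at 0 h it was -0.040 ± 0.43 (-0.93 to 0.85). Averaged over the conditions it was 0.45 ± 0.25 (adjusted p = 0.363).

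Against cat2-2 the CAT2 signal of GO5 was 5.21 ± 0.43 higher at ambient CO2 (37.1-fold, adjusted p = 9.41e-08). It was 3.20 ± 0.43 higher at high CO2 (9.20-fold, adjusted p = 0.00239) and 4.64 ± 0.43 higher at 0 h (24.9-fold, adjusted p = 8.64e-06). The arrays did not overlap in any condition.

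From 0 h to 8 h under constant high CO2 the CAT2 signal fell in every line. In WT it averaged 9.08 ± 0.76 after 8 h and 12.15 ± 0.17 at 0 h (SD, n = 3 each), a fall of 8.40-fold (-3.07 ± 0.43, adjusted p = 2.76e-05). In GO5 it averaged 9.22 ± 0.69 after 8 h and 12.11 ± 0.096 at 0 h (-2.89 ± 0.43, adjusted p = 5.22e-05). In cat2-2 it averaged 6.02 ± 0.19 after 8 h and 7.47 ± 0.60 at 0 h (-1.46 ± 0.43, adjusted p = 0.026). The arrays of both times were apart in each line, and the share of probe sets called was 13.4% in WT, 13.9% in GO5 and 12.5% in cat2-2. In cat2-2 this call ended on leaving out any 1 of 5 of its 6 arrays, the differences then being -1.25 to -1.55. Without replicate 3 at 0 h, the sixth, it was -1.80.

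The GOX1/GOX2 signal also fell over 8 h at high CO2 in WT and cat2-2, by less, with no call in GO5. In WT it averaged 10.36 ± 0.22 after 8 h and 11.28 ± 0.012 at 0 h (-0.92 ± 0.12, adjusted p = 1.04e-05). In cat2-2 it averaged 10.58 ± 0.21 after 8 h and 11.28 ± 0.14 at 0 h (-0.70 ± 0.12, adjusted p = 0.000251). In GO5 it averaged 12.17 ± 0.023 after 8 h and 12.18 ± 0.062 at 0 h, a difference of -0.012 ± 0.12 with a 95% interval of -0.26 to 0.23.

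The GO5 change over 8 h at high CO2 differed from that of WT by 0.91 ± 0.17 for GOX1/GOX2 (95% interval 0.56 to 1.26). Its unadjusted p of 2.08e-05 was the smallest of all probe sets in this comparison, but the limma adjusted p was 0.472. The share called here was 0% (0 probe sets), and 345 had an unadjusted p under 0.05, fewer than expected if none differed. For CAT2 the same difference was 0.18 ± 0.60 (adjusted p = 1.00). The cat2-2 change differed from that of WT by 1.62 ± 0.60 for CAT2 (unadjusted p = 0.0141, adjusted p = 1.00) and by 0.22 ± 0.17 for GOX1/GOX2. In that comparison too the share called was 0%, with 387 probe sets at an unadjusted p under 0.05, again fewer than expected if none differed. Such low counts do not show that the lines changed alike.

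After 8 h at ambient CO2 the CAT2 signal was below that at 0 h in WT and cat2-2. In WT it was lower by 4.90-fold than at 0 h (-2.29 ± 0.43, adjusted p = 0.000515), and in cat2-2 by 2.94-fold (-1.56 ± 0.43, adjusted p = 0.0101). In GO5 the difference of -0.98 ± 0.43 missed the threshold (adjusted p = 0.091). The GO5 arrays at ambient CO2 were all below those at 0 h, and how many probe sets separate in this way was not counted. The shares called were 18.8% in WT, 23% in cat2-2 and 29.4% in GO5. The cat2-2 call was lost without replicate 1 at ambient CO2 or replicate 2 at 0 h (-1.35 each).

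The GOX1/GOX2 signal in WT was also lower after 8 h at ambient CO2 than at 0 h (-0.88 ± 0.12, adjusted p = 1.19e-05). In cat2-2 the difference was -0.76 ± 0.12 (adjusted p = 5.51e-05). In GO5 it was 0.019 ± 0.12 (-0.23 to 0.26), and the arrays of both times overlapped.

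Set against 8 h at high CO2, the CAT2 signal after 8 h at ambient CO2 was higher in GO5, though below its mean of 12.11 at 0 h. Its GO5 mean was 11.13 ± 0.55 at ambient CO2 and 9.22 ± 0.69 at high CO2, with no overlap (1.91 ± 0.43, 3.76-fold, adjusted p = 0.00318). In this comparison 17.7% of probe sets were called. In WT it averaged 9.86 ± 0.93 at ambient CO2 and 9.08 ± 0.76 at high CO2, and the arrays overlapped (0.78 ± 0.43, 95% interval -0.11 to 1.67, adjusted p = 0.321, share called 4.77%). In cat2-2 it averaged 5.92 ± 0.47 at ambient CO2 and 6.02 ± 0.19 at high CO2 (-0.10 ± 0.43, 95% interval -0.99 to 0.79, share called 11.3%).

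These responses were not shown to differ between the lines. The CAT2 response of GO5 minus that of WT was 1.13 ± 0.60 (unadjusted p = 0.0748, adjusted p = 0.337), and 2.78% of probe sets were called. That of cat2-2 minus WT was -0.88 ± 0.60 (adjusted p = 0.597), where 0.0967% were called. By replicate number the values were 1.19, 1.39 and 0.81 for GO5 minus WT, and -1.37, -0.71 and -0.56 for cat2-2 minus WT.

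No difference of the GOX1/GOX2 signal between ambient and high CO2 was called in any line. The differences were 0.031 ± 0.12 in GO5, -0.059 ± 0.12 in cat2-2 and 0.039 ± 0.12 in WT, and their 95% intervals lay between -0.30 and 0.28. The response of GO5 minus that of WT was -0.0080 ± 0.17, and that of cat2-2 minus WT was -0.098 ± 0.17.

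Part of the spread of CAT2 at 8 h went with the replicate number. Replicate 3 lay above the mean of replicates 1 and 2 by 0.95 in GO5 at ambient CO2, 1.15 in GO5 at high CO2, 1.60 in WT at ambient CO2 and 1.32 in WT at high CO2. In cat2-2 it lay above by 0.76 at ambient CO2 and below at high CO2 (-0.0063). At 0 h replicate 3 was above by 0.16 in GO5 and by 0.29 in WT. The shifts in GO5 and WT at 8 h were larger than those of 98.4 to 99.7% of all probe sets on the same arrays. For GOX1/GOX2 the shifts at 8 h lay between -0.36 and 0.27.

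Without replicate 3 of every group, an alternative added after this was seen, the CAT2 response to ambient CO2 in WT was 0.69 (adjusted p = 0.0253) and passed the threshold. The GO5 minus WT response was then 1.29 (adjusted p = 0.0195) and the cat2-2 minus WT response -1.04 (adjusted p = 0.0381). The mean difference of GO5 from WT was 0.56 (adjusted p = 0.0214). The fall in GO5 by 8 h at ambient CO2 was -1.24 (adjusted p = 6.37e-05). Over all alternatives the adjusted p of these 5 results ran from 0.0253 to 0.81, 0.0195 to 0.717, 0.0381 to 1.00, 0.0214 to 0.791 and 6.37e-05 to 0.419, in the order given. Leaving out replicate 1 or replicate 2 of every group instead lost CAT2 calls. The GO5 response to ambient CO2 was then 1.94 (adjusted p = 0.0639) or 1.82 (adjusted p = 0.104). GO5 against cat2-2 at 0 h was 4.79 (adjusted p = 0.0934) or 4.88 (adjusted p = 0.0568). At high CO2 it was 3.41 (adjusted p = 0.837) or 3.38 (adjusted p = 0.157). The call of cat2-2 against WT at high CO2 was lost in both settings. Each setting leaves 2 arrays a group. What sets replicate 3 apart was not tested.

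By mean CAT2 level the groups ran from WT at 0 h (12.15) and GO5 at 0 h (12.11), which overlapped, to GO5 at ambient CO2 (11.13). WT at ambient CO2 (9.86), GO5 at high CO2 (9.22) and WT at high CO2 (9.08) followed, and neighbours from GO5 at ambient CO2 down to WT at high CO2 overlapped. The cat2-2 groups were last, at 7.47 for 0 h, 6.02 for high CO2 and 5.92 for ambient CO2, the last pair overlapping. By GOX1/GOX2 level the 3 GO5 groups came first, at 12.17 to 12.20, and overlapped one another. The 0 h groups of cat2-2 and WT came next, both at 11.28 and overlapping. The 8 h groups of cat2-2 (10.58 and 10.52) and of WT (10.40 and 10.36) came last, each overlapping its neighbour.

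**Figure D3:**
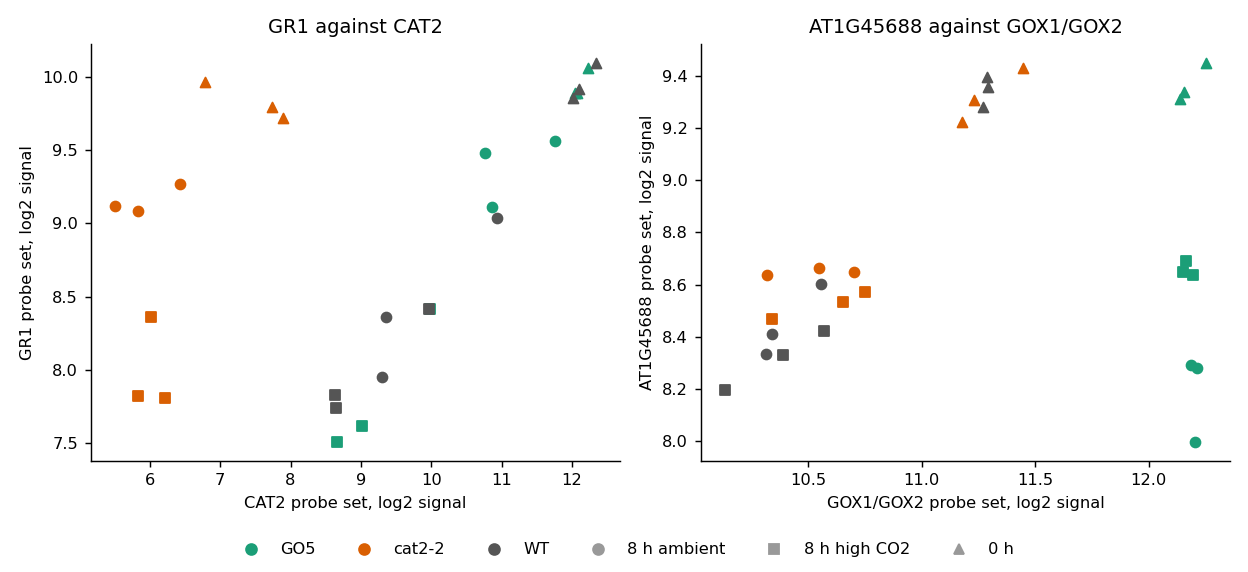
Log2 signal of GR1 against CAT2 (left) and of AT1G45688 against GOX1/GOX2 (right), 1 point per array, 27 arrays each, with line as colour and condition as marker. GR1 follows CAT2 in GO5 and WT while the cat2-2 points lie to the left, and AT1G45688 follows GOX1/GOX2 in cat2-2 and WT while the GO5 points stand in a column at the right.

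Genes with the most similar pattern were found by Pearson's r of log2 signal over 13647 probe sets above a floor on mean signal, and only those paired with 1 gene in the platform annotation are named. Others with as high or low an r were passed over, so ranks among all 13647 are given for the closest. Over the 18 GO5 and WT arrays, lines in which CAT2 itself is not disrupted, the pattern most like CAT2 among the named genes was that of GR1 (AT3G24170), a glutathione reductase of cytosol and peroxisomes, with r = 0.985, at rank 3. The other named genes with a high r were AT5G50100 (0.966, rank 5), AT3G56290 (0.962, rank 7), AT2G26800 (0.961, rank 9) and AT5G35970 (0.958, rank 12). The most opposed of the named genes were AT4G31050 (-0.94), AT3G58530 (-0.92) and AT5G52880 (-0.91), at ranks 13646, 13642 and 13641. The points share 6 groups that fall largely by harvest time, so r mostly reflects the differences between groups. Over all probe sets compared the middle 90% of r ran from -0.74 to 0.72.

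The r of GR1 with CAT2, over arrays of several conditions, was 0.982 over 9 GO5 arrays, 0.992 over 9 WT arrays and 0.960 over the 12 arrays of these lines at 8 h. At ambient CO2 GR1 read 9.11, 9.48 and 9.56 in GO5 and 7.95, 8.36 and 9.03 in WT. At high CO2 it read 7.62, 7.51 and 8.41 in GO5 and 7.83, 7.74 and 8.42 in WT. Replicate 3 was highest in each of these 4 groups, as it was for CAT2. In cat2-2 GR1 read 9.12, 9.09 and 9.27 at ambient CO2 and 7.81, 7.82 and 8.36 at high CO2, while its r with CAT2 over the 9 arrays was 0.629.

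Over all 27 arrays the likeness to CAT2 was weaker. Among named genes it was highest for AT2G34930 (0.737), AT4G10450 (0.679), AT1G64490 (0.665), AT5G25080 (0.661) and AT2G41650 (0.650), and lowest for AT3G62860 (-0.65), AT2G01720 (-0.61) and AT3G18060 (-0.61), the last pair at ranks 13633 and 13632.

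For GOX1/GOX2 over the 18 cat2-2 and WT arrays, the highest r was that of AT1G45688 (0.964), at rank 1. Over the 12 of these arrays at 8 h its r was 0.681. Here too r mostly reflects the differences between groups. The other named genes with a high r were at ranks 13 to 20. AAPT2, an aminoalcohol phosphotransferase of phospholipid synthesis, had 0.934, and AT1G55960 had 0.929. GAPC2, a cytosolic glyceraldehyde-3-phosphate dehydrogenase, had 0.928 and PRK, the phosphoribulokinase of the Calvin-Benson cycle, 0.927. The lowest of the named genes were AT3G13175 (-0.94), AT4G14270 (-0.94) and AT4G18930 (-0.93), at ranks 13647, 13645 and 13644. Spearman's rho was weaker, at 0.80 to 0.91 for the 5 highest and -0.82 to -0.69 for the 3 lowest. In the 9 GO5 arrays the r of these 8 genes with GOX1/GOX2 lay between -0.13 and 0.21. PRK itself averaged 11.51 at ambient CO2, 11.51 at high CO2 and 12.06 at 0 h in GO5, against 11.43, 11.54 and 12.05 in WT.

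Over all 27 arrays the highest r with GOX1/GOX2 were those of AT5G52070 (0.828), AT3G12860 (0.801), AT3G07750 (0.797), AT3G02200 (0.779) and AT2G43770 (0.774). The lowest were AT3G44280 (-0.74), AT1G48440 (-0.71) and AT3G45050 (-0.70). Between the 2 members r was 0.558 over 27 arrays, 0.415 over GO5 and WT, and 0.314 over cat2-2 and WT.

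**Figure D4:**
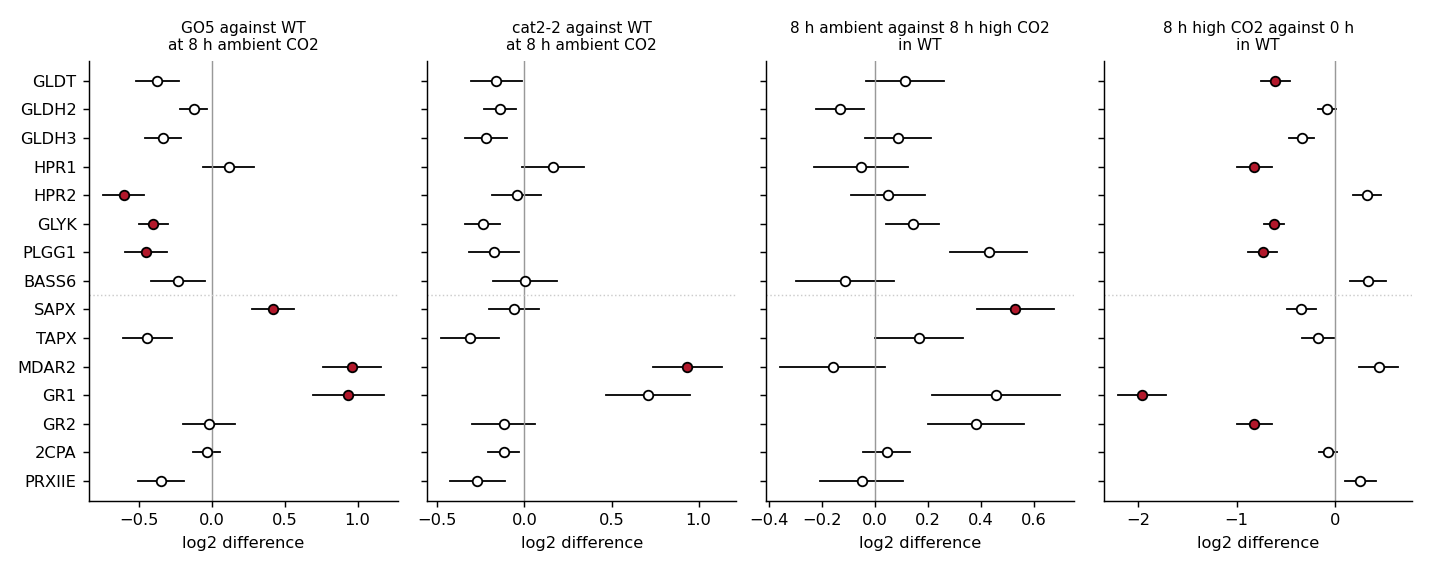
Log2 differences of 8 photorespiration genes (above the dotted line) and 7 antioxidant enzyme genes (below it) in 4 comparisons, with bars of 1 standard error. Filled points have an adjusted p under 0.05. Each panel has its own horizontal scale. MDAR2 is raised in both GO5 and cat2-2 at ambient CO2, set against the same WT arrays, and GR1 has the lowest difference in the panel of WT over 8 h at high CO2.

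Other enzymes and carriers of photorespiration were measured in part, 8 of 33 listed genes having a probe set named for 1 gene. In GO5 against WT at ambient CO2, 3 of the 8 fell and none rose, where 9.85% of all probe sets were called lower and 8.59% higher. They were HPR2, the cytosolic hydroxypyruvate reductase (-0.60 ± 0.14, adjusted p = 0.00513), PLGG1, the plastid glycolate and glycerate carrier (-0.45 ± 0.14, adjusted p = 0.0335), and GLYK, glycerate kinase (-0.40 ± 0.10, adjusted p = 0.00777). The median of the 8 was -0.35, against -0.06 for all probe sets. In cat2-2 against WT none of the 8 was called (median -0.15, against -0.03), where 0.514% of probe sets were called higher and 0.189% lower. No alternative was run for the listed genes. With only the arrays compared, 206 probe sets (main 4193) were called for GO5 and 7 (main 160) for cat2-2 against WT. Both comparisons use the WT arrays at ambient CO2, whose GAPDH excess was 2.12 ± 0.61 (SD, n = 3). The mean actin excess of these WT arrays, 3.995 ± 0.55, was not above that of GO5 or cat2-2 at ambient CO2.

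In WT at ambient against high CO2 none of these 8 was called either (median 0.07, against 0.0016), and 2.78% of probe sets were called higher and 1.99% lower. Over 8 h at high CO2 in WT, 4 of the 8 fell and none rose, where 6.5% of probe sets fell and 6.88% rose. They were HPR1, the peroxisomal hydroxypyruvate reductase (-0.82 ± 0.18), PLGG1 (-0.74 ± 0.14), GLYK (-0.62 ± 0.10) and GLDT, the T protein of glycine decarboxylase (-0.61 ± 0.15). The median of the 8 was -0.47, against -0.00086 for all probe sets. GOX1/GOX2 fell in the same comparison (-0.92).

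Other H2O2-handling enzymes were represented by 7 of 30 listed antioxidant genes. In GO5 at ambient CO2, 3 of the 7 rose against WT and none fell, where 8.59% of all probe sets were called higher and 9.85% lower. They were MDAR2, a monodehydroascorbate reductase (0.96 ± 0.20, adjusted p = 0.00216), GR1 (0.94 ± 0.24, adjusted p = 0.00977) and SAPX, the stromal ascorbate peroxidase (0.42 ± 0.14, adjusted p = 0.0454). Whether these calls hold under the alternatives was not tested. In cat2-2, set against the same WT arrays, MDAR2 alone of the 7 rose (0.93 ± 0.20, adjusted p = 0.0273), where 0.514% of probe sets were called higher, and GR1 differed by 0.71 ± 0.24 (adjusted p = 0.186). The medians of the 7 were -0.02 in GO5, against -0.06 for all probe sets, and -0.12 in cat2-2, against -0.03. In WT the move to ambient CO2 raised SAPX alone of the 7 (0.53 ± 0.14, adjusted p = 0.0352), where 2.78% of probe sets were called higher, and the median was 0.17, against 0.0016 for all. In WT 8 h at high CO2 lowered GR1 (-1.96 ± 0.24, adjusted p = 6.13e-06) and GR2, the organellar glutathione reductase (-0.82 ± 0.18, adjusted p = 0.00315), and none rose, where 6.5% of probe sets fell and 6.88% rose. The median of the 7 was -0.18, against -0.00086.

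Of 21 peroxisome biogenesis genes PEX4 was measured and not called in any of these 4 comparisons. Of 19 clock genes GIGANTEA (GI) was measured. It was 3.70 ± 0.38 higher in WT after 8 h at high CO2 than at 0 h (adjusted p = 5.06e-07), over the hours in which CAT2 and GOX1/GOX2 fell. Whether these changes are linked was not tested. Every comparison of 8 h with 0 h is also one of harvest times, and that at ambient CO2 adds the change of CO2. None of the 5 listed catalase genes had a probe set named for it in the array annotation used here, so the other catalases are not analysed here.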

How the data were processed

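A log2 signal for each probe set on each of 27 arrays was deposited by the authors. Per the submitters' processing notes RMA, GCRMA, affy and R 2.15.0 were used, and which of the methods made the values is not stated. Biotin-labelled cRNA was made with a 3' amplification kit, per the labels' protocols. All columns were matched to samples by label, with 0 unmatched.

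The 64 control probe sets were dropped. The other 22746 went into 1 limma fit (version 3.58.1, R 4.3.3) with 1 mean per group over 27 arrays and no block. There were 24 contrasts: 18 between groups, 4 differences of responses and 2 means over conditions. Tests were two-sided, and p-values were adjusted within each contrast. The fit was tested on simulated data. Comparisons that use the same group share its arrays. The labels call the samples biological replicates.

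Of the probe sets tested, 13513 are paired with 1 gene, 503 with several and 8730 with none in the platform annotation, and 13436 of the first matched RefSeq. Genes were named by a rule: both members in every contrast, up to 4 called members of each list in 4 contrasts, and the 5 highest and 3 lowest r per member among probe sets paired with 1 gene and above the percentile 40 of mean signal (4.54 log2). The members, lists and alternatives were chosen with earlier results of these data known.

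Alternatives were quantile normalization, median centring, robust variances with a trend, removal of dim probe sets, the GAPDH difference as covariate, only the arrays compared, replicate number as a block, single arrays or the 2 arrays apart from their groups left out (replicate 1 of WT and replicate 3 of cat2-2 at ambient CO2) and, added later, each replicate number left out. Same-numbered arrays had deviations with every r over 0.1 in 3 of 18 group pairs, those of GO5 and cat2-2. At 0 h these were 0.69, 0.60 and 0.78. In other pairs single replicates were also alike. Replicate 3 at 0 h had r = 0.797 for cat2-2 and WT and 0.786 for GO5 and WT. Over all pairs r ran from -0.395 to 0.797. The reported values have no block for any pair, and the fit with the block is an alternative.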

Additional observations from a re-analysis of the deposited data

How the results depend on the processing

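Of 24 results each, 14 for CAT2 and 11 for GOX1/GOX2 were called, of which 5 and 9 kept their call under every alternative run, and 0 called values changed sign. With only the arrays compared, calls were lost for CAT2 in cat2-2 against WT at ambient (-3.94) and high CO2 (-3.06), in GO5 against cat2-2 at high CO2 (3.20) and against WT at ambient CO2 (1.27), and for GOX1/GOX2 at 0 h in GO5 against cat2-2 (0.90) and WT (0.90). That setting estimates the spread from fewer arrays, and only from the groups compared. CAT2 in GO5 at ambient CO2 against 0 h was called with it and with the replicate block (-0.98 in both, adjusted p = 0.0287 and 0.0444). The replicate block changed no other call. CAT2 in GO5 against WT at ambient CO2 lost its call under median centring (1.17, adjusted p = 0.0506), trend and robust variances (1.27, adjusted p = 0.0507), the GAPDH covariate (0.86) and without the 2 arrays apart (0.99, adjusted p = 0.171). The cause was not tested.

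Uncalled values near 0 changed sign. With the GAPDH covariate CAT2 in GO5 against WT at high CO2 was -0.026, and GOX1/GOX2 in GO5 was -0.040 for ambient against high CO2 and 0.059 for high CO2 against 0 h. GOX1/GOX2 in GO5 was 0.071 for high CO2 against 0 h under quantile normalization and -0.065 for ambient CO2 against 0 h under median centring. In cat2-2 against WT it was -0.015 at 0 h under quantile normalization, -0.014 under median centring, and -0.00070 at ambient CO2 without the 2 arrays apart.

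Leaving out arrays, singly or by replicate number, gave these ranges for CAT2 where a call or sign changed: GO5 against WT 0.95 to 1.80 at ambient CO2, -0.25 to 0.58 at high CO2, -0.11 to 0.056 at 0 h and 0.33 to 0.63 over the conditions. GO5 against cat2-2 gave 2.82 to 3.48 at high CO2 and 4.24 to 4.88 at 0 h, and cat2-2 against WT -3.39 to -2.62 at high CO2. The last was lost without replicate 2 of cat2-2 at high CO2 (-2.97, adjusted p = 0.0635). It was also lost without replicate 1 (-3.39) or replicate 2 (-3.19) of every group. Ambient against high CO2 gave 1.59 to 2.29 in GO5, 0.25 to 1.22 in WT and -0.36 to 0.21 in cat2-2. Ambient CO2 against 0 h gave -1.30 to -0.80 in GO5, -2.83 to -2.01 in WT and -2.15 to -1.22 in cat2-2, and high CO2 against 0 h -1.80 to -1.15 in cat2-2. The differences from the WT response ranged from 0.69 to 1.67 (GO5) and -1.32 to -0.35 (cat2-2) for ambient CO2, and from -0.21 to 0.62 for GO5 over 8 h at high CO2.

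For GOX1/GOX2 the ranges at 0 h were 0.86 to 0.92 for GO5 against WT, 0.84 to 0.98 for GO5 against cat2-2 and -0.080 to 0.057 for cat2-2 against WT. Of these settings, both GO5 calls at 0 h were lost only without a whole replicate number, which leaves 2 arrays a group. In GO5 the range was -0.0033 to 0.055 for ambient CO2 and -0.039 to 0.027 for high CO2 against 0 h. Ambient against high CO2 gave -0.076 to 0.17 in WT and -0.27 to 0.13 in cat2-2. The differences from the WT response were -0.12 to 0.11 (GO5) and -0.25 to 0.16 (cat2-2) for ambient CO2, and -0.0034 to 0.43 (cat2-2) over 8 h at high CO2.

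Counts of called probe sets moved most. With only the arrays compared they were 206 (main 4193) for GO5 and 7 (main 160) for cat2-2 against WT at ambient CO2, and 153 (main 1085) for ambient against high CO2 in WT. Without the 2 arrays apart they were 433 for cat2-2 and 694 for WT. The GAPDH covariate gave 1793 (main 3042) for WT over 8 h at high CO2. Leaving out arrays gave 1637 to 5189 for GO5 and 17 to 1072 for cat2-2 against WT at ambient CO2, 152 to 3247 for ambient against high CO2 in WT and 1247 to 2779 for WT over 8 h.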
